A study of Mus musculus with 2 samples.

Results

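The genes described here are the families best known from the mature placenta, and they were chosen by symbol. The rule took each gene with a probe set of its own whose symbol is Prl, Prlr, Tpbpa or Tpbpb, or is Prl, Psg or Ceacam followed by a digit. It found 51 genes among the 22180 named genes of the array, made up of 21 Prl genes, 13 Psg genes, 15 Ceacam genes and 2 Tpbp genes. Each of them had a single probe set. RefSeq lists 57 mouse genes with such symbols, and the 6 without a probe set of their own were the prolactin receptor gene Prlr, the lactogen genes Prl3b1, Prl3d1 and Prl3d2, and the proliferin genes Prl2c2 and Prl2c3. These 6 were not analysed here.

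An expression array was used to measure transcripts in mouse embryonic stem cells, in 2 samples. The sample under test came from the Niwa stable line that expresses EWS-OCT4A-GFP, a fusion of the EWS protein with the pluripotency factor OCT4A, tagged with green fluorescent protein. Its control was the Niwa stable line that expresses GFP alone. They are called the fusion line and the GFP line below. Both lines grew in stem cell medium with LIF and both were given 1 µg/ml doxycycline to bring down the OCT4 of the cells themselves, so the treatment is shared by both groups. A sample without doxycycline was not analysed here, so the fall in OCT4 itself was not measured. Pou5f1, the mouse gene for OCT4, had values of 5.37 in the fusion line and 5.24 in the GFP line. How long doxycycline was given, how many clones stand behind a line and which promoter drives the transgene are not given in the sources used here. With 1 sample per line there is no replicate check, no error and no p-value for any difference.

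As background, mouse embryonic stem cells that lose OCT4 turn towards trophoblast, the lineage that builds the fetal part of the placenta. Trophoblast stem cells give rise to giant cells, spongiotrophoblast, glycogen cells and the syncytiotrophoblast of the labyrinth. Rodents carry a large cluster of prolactin-like hormone genes, which are switched on one after another in giant cells, spongiotrophoblast and decidua. The pregnancy-specific glycoproteins (Psg) are secreted immunoglobulin-like proteins of giant cells and spongiotrophoblast. They belong to a wider family with the Ceacam adhesion molecules, some of which are placental in rodents while others act in gut, liver, blood vessels, leukocytes or the inner ear. Tpbpa marks spongiotrophoblast.

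Values are log2 RMA values, and a difference is the fusion line minus the GFP line. A difference is described as at least 2-fold where it reaches 1.00 in size on the log2 scale. The floor is 4.10, the median of all values of both arrays, and a gene counts as at or above it when the higher of its 2 values is. The medians of the arrays were 4.11 for the fusion line and 4.08 for the GFP line. Probes differ in how strongly they bind, so the value of one gene is not set against that of another. Of 6 stem cell markers (Pou5f1, Sox2, Nanog, Zfp42, Esrrb and Klf4), all 6 were at or above the floor in the fusion line and 5 in the GFP line, where Esrrb read 4.07.

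Most of the placental families sat at the low end of the scale in both lines. Of the 51 genes, 44 were below the floor in both samples, and 7 (13.7%) were at or above it, against 60.9% of all named genes. These are readings of different probes and do not rank transcript levels. The median was 2.44 in the fusion line and 2.68 in the GFP line. At or above the floor were Ceacam1, Ceacam20, Ceacam2, Ceacam9, Psg29, Prl3d3 and Prl2a1. The name of the group as mature placental genes comes from the symbols and is not shown by these readings. The 2 genes that also reached the 75th percentile of all values (5.80), Ceacam1 and Ceacam20, are known mainly from other tissues. Over all 51 genes the median difference was -0.09, with 29 differences below 0, 19 above 0 and 3 equal to 0, against a median of 0.00 over all named genes.

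**Figure D1:**
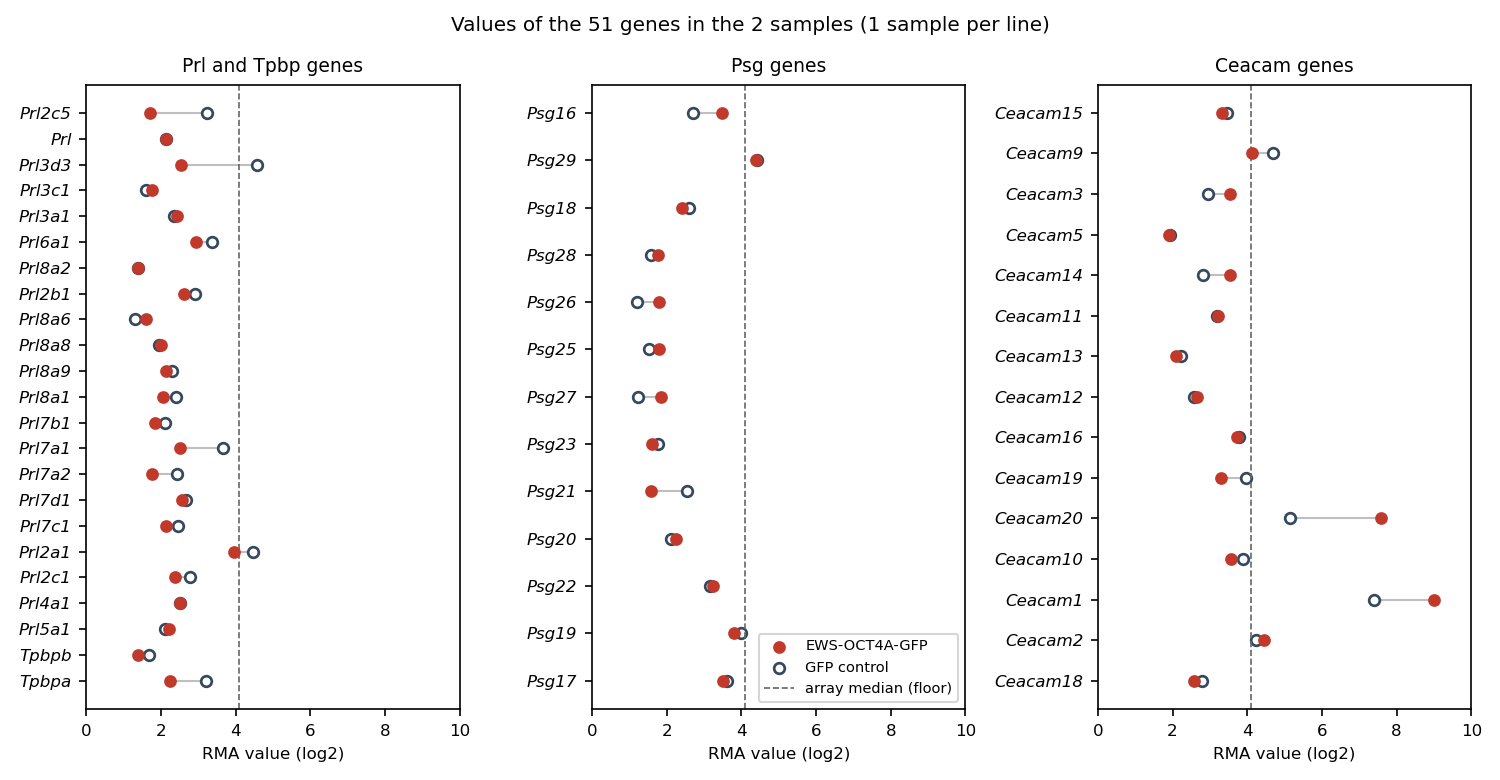
RMA values (log2, horizontal axis) of the 51 genes in the EWS-OCT4A-GFP sample (filled red) and the GFP control (open), in map order within each panel, with 1 sample per line and a dashed line at the floor of 4.10. Most pairs lie left of the floor, and Ceacam1 and Ceacam20 are the pairs furthest to its right.

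Of the 7 genes that reach the floor, 1 was lower in the fusion line by at least 2-fold and 2 were higher by that size. Across all 13516 named genes at or above the floor, 11.9% were lower and 9.31% higher by that size. The lower gene was Prl3d3 and the higher ones were Ceacam1 and Ceacam20. Among the 44 genes below the floor, 2 were at least 2-fold lower, Prl2c5 and Prl7a1, and 0 were higher. The shares over the 8664 named genes below the floor were 0.612% lower and 0.889% higher. These are small counts in a single pair of samples, and they give sizes only.

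**Figure D2:**
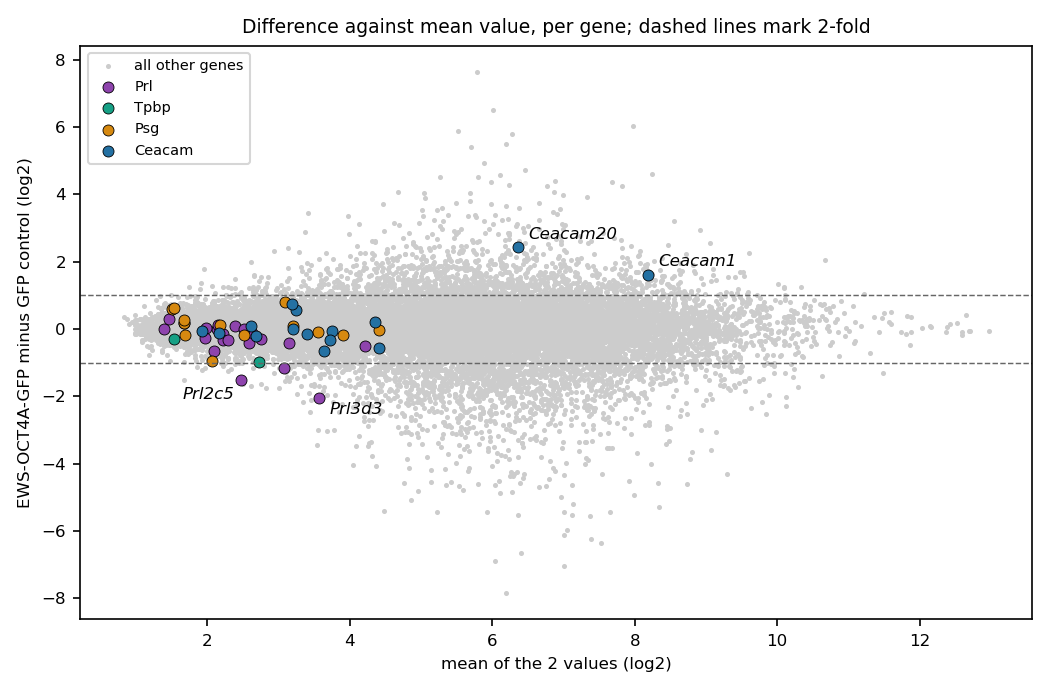
Difference (EWS-OCT4A-GFP minus GFP control, log2, vertical axis) against the mean of both values (log2, horizontal axis), with 1 point per gene, the 51 genes in colour and all other genes in grey. Prl3d3 and Prl2c5 are the lowest of the coloured points, Ceacam20 and Ceacam1 the highest, and the dashed lines mark 2-fold.

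The lactogens are the hormones of the family that bind the prolactin receptor, and 2 of them were measured. Prl3d3 (probe set 17286132), one of 3 neighbouring genes for placental lactogen I, the early hormone of trophoblast giant cells, read 2.55 in the fusion line and 4.58 in the GFP line. It was the Prl gene with the largest difference, -2.04 or 4.10-fold. The fusion line value was below the floor, and with that value set to the floor the difference was -0.49, or 1.40-fold. With the floor applied to the mean of both values instead of the higher one, Prl3d3 no longer counted. Prl (17286107), the pituitary hormone prolactin itself, read 2.14 in the fusion line and 2.14 in the GFP line. Such ties are common on this array, with 1631 of 33793 probe sets (4.83%) equal in both samples.

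The sequence before Prl3d3 is shown because it holds both motifs known from the placental lactogen I promoter, whose activity in mouse trophoblast depends on GATA factors and AP-1. The 250 bases before the start are given from RefSeq, build GRCm38.p6, 5′ to 3′, in lower case, with GATA motifs (GATAA or GATAG after A or T) and AP-1 motifs (TGANTCA) in capitals on either strand. Prl3d1, which has no probe set of its own, is shown beside it for comparison.
Prl3d3, chr13:27156544-27156793, plus strand: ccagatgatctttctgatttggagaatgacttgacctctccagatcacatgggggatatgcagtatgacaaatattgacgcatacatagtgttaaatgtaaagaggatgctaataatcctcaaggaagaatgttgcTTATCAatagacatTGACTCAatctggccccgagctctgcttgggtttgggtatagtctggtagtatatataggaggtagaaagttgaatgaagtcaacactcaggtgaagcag
Prl3d1, chr13:27093939-27094188, plus strand: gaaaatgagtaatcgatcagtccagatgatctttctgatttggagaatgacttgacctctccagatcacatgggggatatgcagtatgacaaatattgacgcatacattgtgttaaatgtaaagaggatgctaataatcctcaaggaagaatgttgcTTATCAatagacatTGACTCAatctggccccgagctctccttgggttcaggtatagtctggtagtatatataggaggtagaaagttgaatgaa
The Prl3d3 window holds 1 GATA motif at -114 to -109 and 1 AP-1 motif at -100 to -94, counted from the start. The same pair of motifs lies at -93 and -79 in Prl3d1 and at -110 and -96 in Prl3d2, counted by the first base. The annotated starts of these genes are offset from each other. Over the 246 and 229 aligned positions where the windows overlap, the Prl3d3 window was identical to that of Prl3d2 at 99.6% and to that of Prl3d1 at 98.3%. These windows lie before the transcripts, whose likeness was not compared here. The signal of the Prl3d3 probe set may include transcripts of its neighbours, which was not tested.

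Proliferins are glycoprotein hormones of giant cells that promote blood vessel growth in mouse. Prl2c5 (17285227) read 1.72 in the fusion line and 3.23 in the GFP line. Its difference was -1.51, and of the 8664 genes below the floor 8 were lower by as much or more. Both values lay below the floor, where background is unknown. Probe sets 17290666 and 17290674 each carry the symbols of 4 proliferin genes (Prl2c2, Prl2c3, Prl2c4 and Prl2c5) and so are not among the 51. The first read 2.35 in the fusion line and 3.22 in the GFP line, a difference of -0.87. The second read 2.52 in the fusion line and 3.62 in the GFP line, a difference of -1.10. All 3 proliferin probe sets were thus lower in the fusion line, though they may bind the same transcripts and are not separate evidence. Prl2c1 (17286198), which unlike Prl2c5 lies in the main cluster of Prl genes, read 2.38 in the fusion line and 2.79 in the GFP line. Prl7d1 (17291490), the proliferin-related protein that restrains blood vessel growth, read 2.57 in the fusion line and 2.68 in the GFP line.

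The window before Prl2c5 is shown to set it beside Prl3d3, with the same marks.
Prl2c5, chr13:13182466-13182715, plus strand: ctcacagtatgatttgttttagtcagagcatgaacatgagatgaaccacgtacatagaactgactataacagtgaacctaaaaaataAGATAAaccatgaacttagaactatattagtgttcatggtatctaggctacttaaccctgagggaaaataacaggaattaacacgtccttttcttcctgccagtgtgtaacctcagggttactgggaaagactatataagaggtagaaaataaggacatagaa
It holds a GATA motif at -163 to -158 and no AP-1 motif of these letters. The window of its paralog Prl2c3 was identical at 96.0% of aligned positions, against 54.1% between Prl2c5 and Prl3d3.

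The other 16 Prl genes encode hormones that are not known to act through the prolactin receptor, and 15 of them were below the floor in both samples. Their median difference was -0.20, with 9 below 0, 5 above 0 and 2 equal. Prl2a1 (17286190), which encodes prolactin-like protein M, was the exception at the floor, with 3.96 in the fusion line and 4.46 in the GFP line, a difference of -0.50. Prl7a1 (17291469) read 2.50 in the fusion line and 3.65 in the GFP line, a difference of -1.15. Its neighbour and paralog Prl7a2 read 1.77 in the fusion line and 2.42 in the GFP line, a difference of -0.65. Prl6a1, which encodes prolactin-like protein B, differed by -0.41 (2.95 in the fusion line, 3.36 in the GFP line).

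Several other Prl genes, picked for naming after their values were seen, showed small differences or none. They do not stand for a stage of the placenta that differs from the genes above. Prl8a2, a hormone of the decidua, read 1.40 in each sample and Prl4a1, prolactin-like protein A, read 2.52 in each. Prl8a8 of spongiotrophoblast read 1.997 in the fusion line and 1.96 in the GFP line. Prl7b1, known from invasive trophoblast, read 1.84 in the fusion line and 2.11 in the GFP line. Prl5a1 (0.11), Prl3c1 (0.16) and Prl8a6 (0.31) had differences above 0, the last being the largest positive one of the family. At such low readings RMA compresses differences, so values close to each other do not show equal transcript levels.

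The 21 Prl genes had a median difference of -0.27, with 13 below 0, 5 above 0 and 3 equal. In the order of the map in RefSeq, 9 measured genes in a row, Prl8a9 through Prl2c1, had differences below 0, a run noticed after the values were seen. They ran from -1.15 to -0.12 with a median of -0.34, and all but Prl2a1 were below the floor in both samples. Of the 8664 named genes below the floor, 3798 had differences below 0, and the middle 90% ran from -0.556 to 0.604. Only Prl7a1 and Prl7a2 of the run lay outside that range, so the run is a description and no regional change is shown. All 5 Prl7 genes are in that run. Prl2c5 lies apart from the main cluster, at another site on chromosome 13.

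**Figure D3:**
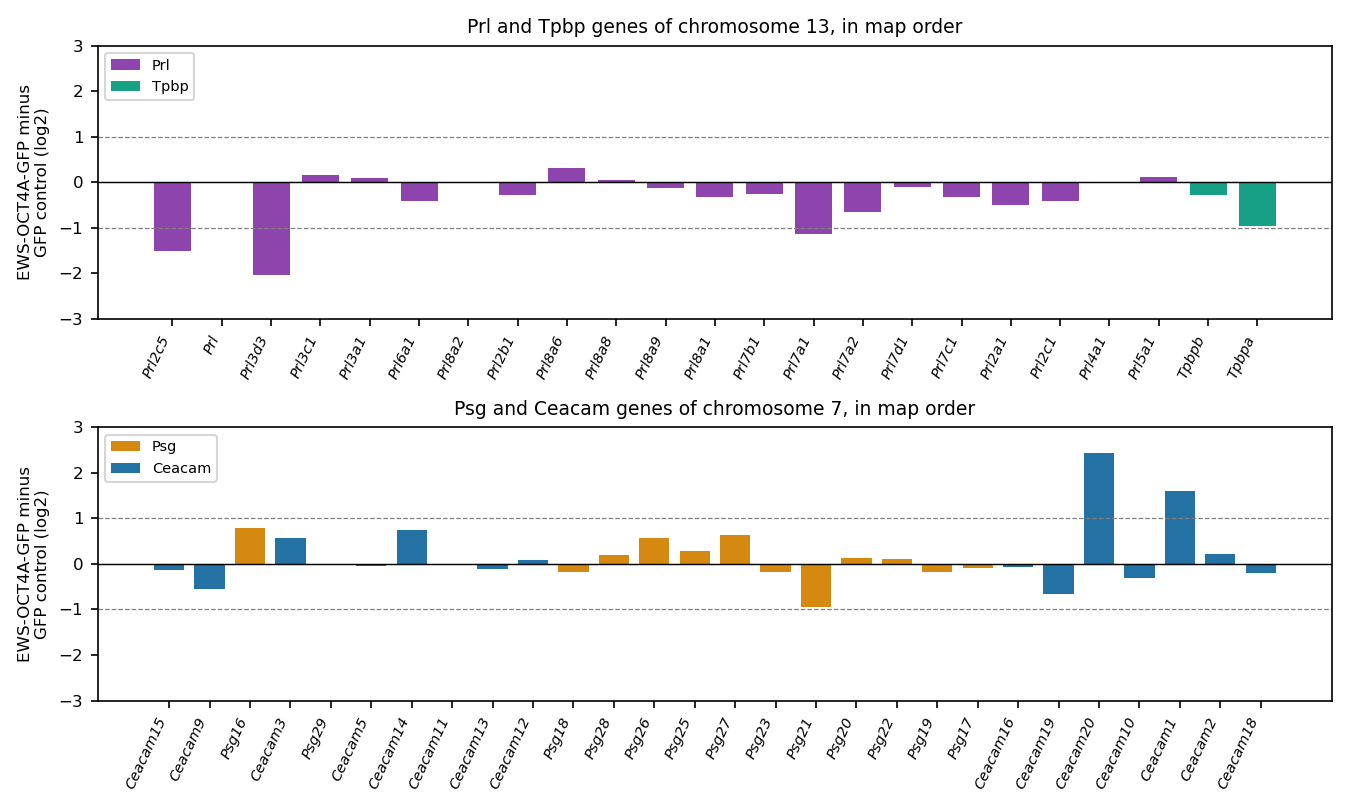
Difference (EWS-OCT4A-GFP minus GFP control, log2) of each gene as a bar, in map order on chromosome 13 (top) and chromosome 7 (bottom), evenly spaced and not to scale. The bars of 9 neighbouring Prl genes, Prl8a9 through Prl2c1, point down, and on chromosome 7 the tall bars are Ceacam20 and Ceacam1.

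The window before Prl7a1, the gene with the largest difference in that run, is shown for its motifs.
Prl7a1, chr13:27642494-27642743, minus strand: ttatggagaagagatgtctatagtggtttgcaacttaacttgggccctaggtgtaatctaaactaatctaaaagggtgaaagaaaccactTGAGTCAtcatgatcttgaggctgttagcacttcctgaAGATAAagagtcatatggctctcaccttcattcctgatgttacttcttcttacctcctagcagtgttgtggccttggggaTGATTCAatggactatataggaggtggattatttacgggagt
It holds 1 GATA motif and 2 AP-1 motifs, whereas the window of Prl7a2, identical at 76.8% of aligned positions, holds an AP-1 motif and no GATA motif of these letters.

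The Tpbp genes encode small secreted proteins related to cathepsin propeptides. Tpbpa (17293370) read 2.24 in the fusion line and 3.21 in the GFP line. Its difference of -0.97 was just under 2-fold, and 58 of the 8664 genes below the floor were lower by as much or more. Tpbpb read 1.40 in the fusion line and 1.68 in the GFP line, a difference of -0.29. Both genes were below the floor in both samples.

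The Psg genes showed no shared direction. Of 13, 7 had a difference above 0 and 6 below 0, all within 2-fold, and the median was 0.10. Psg29 (17474258) was the 1 member at or above the floor and read 4.39 in the fusion line and 4.43 in the GFP line. Psg16 (17474235) had the largest positive difference, 0.79, with 3.49 in the fusion line and 2.69 in the GFP line. Psg21 (17487086) had the largest negative one, -0.95, with 1.59 in the fusion line and 2.54 in the GFP line.

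Neighbouring Psg genes differed in sign as well. Psg27 (0.63) and Psg26 (0.58) were higher in the fusion line, though their highest reading was 1.85. Psg22, expressed by giant cells early in mouse pregnancy, read 3.25 in the fusion line and 3.15 in the GFP line. Psg19 read 3.81 in the fusion line and 3.99 in the GFP line, and Psg17, whose protein binds the tetraspanin CD9 in mouse, read 3.51 in the fusion line and 3.60 in the GFP line. Psg18, Psg20, Psg23, Psg25 and Psg28 differed by -0.18 to 0.28. Psg genes are close copies of each other, so the member behind a probe set is uncertain.

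The 8 Ceacam genes listed as placental in rodents stayed within 2-fold, with a median of -0.02, 4 below 0 and 4 above 0. Ceacam9 (17474130) was the 1 at or above the floor, with 4.13 in the fusion line and 4.68 in the GFP line, a difference of -0.55. Ceacam14 differed by 0.74 (3.55 in the fusion line, 2.82 in the GFP line) and Ceacam3 by 0.57 (3.53 in the fusion line, 2.95 in the GFP line). Ceacam5, Ceacam11, Ceacam12, Ceacam13 and Ceacam15 differed by -0.14 to 0.08.

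Of the 7 Ceacam genes known mainly from other tissues, 2 were at least 2-fold higher in the fusion line. Ceacam20 (17474694), a membrane protein of the microvilli of gut epithelium, read 7.58 in the fusion line and 5.14 in the GFP line. Its difference of 2.44, or 5.42-fold, was the largest of the 51, and 129 of the 13516 genes that reach the floor (0.954%) were higher by as much or more. Ceacam1 (17487952), an adhesion molecule of epithelium, endothelium and leukocytes and the receptor of mouse hepatitis virus, read 8.99 in the fusion line and 7.38 in the GFP line. The difference was 1.61, or 3.05-fold, and 453 genes (3.35%) were higher by as much or more. For both genes the values of both lines were above the floor.

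The closest relatives and map neighbours of these genes did not share the size of the difference. Ceacam2 (17487964), the paralog next to Ceacam1, read 4.46 in the fusion line and 4.25 in the GFP line, a difference of 0.21. Ceacam19, next to Ceacam20 among the listed genes, read 3.30 in the fusion line and 3.97 in the GFP line, a difference of -0.67. Ceacam16, known from the inner ear, differed by -0.06, Ceacam10 by -0.32 and Ceacam18 by -0.20. Without Ceacam1 and Ceacam20 the other 5 genes had a median of -0.20.

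Markers of cells in which Ceacam1 and Ceacam20 are best known gave the following values. Of 4 gut epithelium markers (Cdx1, Vil1, Cdhr5 and Muc2) 0 were at least 2-fold different, and their mean was 3.69 in the fusion line and 3.92 in the GFP line. Of 3 leukocyte markers 0 were at least 2-fold different, and their mean was 4.25 in the fusion line and 4.51 in the GFP line. Of these 7 markers 5 were below the floor in both lines, where few genes reach 2-fold in any case, so their counts of 0 say little. Of 5 decidual and endothelial markers, Pecam1 was higher (8.91 in the fusion line, 4.64 in the GFP line), Cdh5 was lower (4.30 in the fusion line, 8.06 in the GFP line) and the other 3 were within 2-fold. The 5 stem cell markers other than Pou5f1 were at least 2-fold higher in the fusion line, and the part of any of these cells in the Ceacam1 and Ceacam20 values was not tested.

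The windows before Ceacam20 and Ceacam1 are shown because these are the 2 higher genes.
Ceacam20, chr7:19965162-19965411, plus strand: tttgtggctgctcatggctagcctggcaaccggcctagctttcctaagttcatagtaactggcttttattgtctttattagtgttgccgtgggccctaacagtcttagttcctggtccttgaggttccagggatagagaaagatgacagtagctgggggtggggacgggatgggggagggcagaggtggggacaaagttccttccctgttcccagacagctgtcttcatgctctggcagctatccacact
Ceacam1, chr7:25477626-25477875, minus strand: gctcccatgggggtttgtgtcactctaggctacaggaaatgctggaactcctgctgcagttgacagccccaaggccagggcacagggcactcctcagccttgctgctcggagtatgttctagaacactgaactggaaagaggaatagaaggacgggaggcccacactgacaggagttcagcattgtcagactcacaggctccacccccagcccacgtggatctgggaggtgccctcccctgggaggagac
Neither window holds a GATA or AP-1 motif of these letters, nor the octamer ATGCAAAT, the motif bound by OCT4. They were identical at 49.3% of aligned positions.

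Windows were found for 43 of the 51 genes, 49 windows in all, since some genes have more than 1 start. A GATA motif was in 15 of 21 Prl windows and 10 of 11 Psg windows, or 71.4% and 90.9%, against 26.5% of all 32851 windows in the table. Ceacam windows held it in 6 of 15 cases. An AP-1 motif was in 4 of 21 Prl windows, 4 of 11 Psg windows and 1 of 15 Ceacam windows, against 6.75% of all windows. Both motifs stood together in 8 of the 49 windows (16.3%), those of Prl3d3, Prl7a1, Prl3a1, Psg18, Psg27, Psg28 and Ceacam5, against 2.33% of all windows. The octamer was in 5 windows (10.2%), those of Tpbpa, Tpbpb, Prl2a1 and Ceacam12, against 1.60% of all. Members of a family descend from common copies, and Prl windows were richer in A and T (median 61.6%) than all windows (47.6%), so these shares are descriptions and no motif is shown to be used. Psg windows had 51.6% A and T. Of the genes with both motifs, Prl3d3 and Prl7a1 were at least 2-fold lower in the fusion line. Within 2-fold were Psg27 (0.63), Psg28 (0.19), Prl3a1 (0.10), Ceacam5 (-0.05) and Psg18 (-0.18). All but Prl3d3 were below the floor in both samples, and a link between motifs and differences was not tested.

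Lists of genes of placental cell types were drawn from general knowledge, with earlier results of these data known, so their counts are descriptions. Across all 13516 named genes at or above the floor, 11.9% were lower and 9.31% higher by at least 2-fold. Of 11 giant cell genes, 7 were lower in the fusion line by at least 2-fold and 0 were higher, with a median difference of -3.30, and their mean was 3.82 in the fusion line and 6.32 in the GFP line. Gata2, Plat (-4.30), Rhox6 (-3.92) and Plac1 (-3.76) differed most. Hand1, which drives giant cell formation in mouse, read 3.79 in the fusion line and 5.85 in the GFP line. Of 10 genes of spongiotrophoblast and glycogen cells, 7 were at least 2-fold lower and 0 higher, with a median of -2.60. Igf2, Dlx3 (-4.63), Ascl2 (-3.50), a regulator of spongiotrophoblast, and Cdkn1c differed most. All 13 genes of syncytiotrophoblast and labyrinth were lower, 10 of them by at least 2-fold, led by Syna, Gjb2, Dlx3 and Ctsb (-2.35). Dlx3 is on this list and on that of spongiotrophoblast and glycogen cells, so it is counted in both. Of 12 trophoblast stem cell genes 4 were lower and 4 higher by at least 2-fold, with Sox2, Fgfr2, Esrrb and Zfp42 differing most. Sox2, Esrrb and Zfp42 are also on the list of embryonic stem cell markers, and without these 3 genes 4 of 9 were lower and 1, Bmp4, was higher by that size.

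In the fusion line 0 of 21 Prl genes, 1 of 13 Psg genes and 0 of 2 Tpbp genes reached the floor, and in the GFP line 2, 1 and 0 of them did. Of the 11 giant cell genes 5 reached it in the fusion line and 9 in the GFP line. Since probes differ in binding, these counts do not compare transcript levels between the lists. In a bulk sample fewer cells of a type and less RNA per cell cannot be told apart. Of the giant cell list, 9 genes had differences below 0, as Prl3d3 and Prl2c5 did, against 1 above 0 (Ctsq) and 1 equal (Ctsj). The part of giant cells in the Prl3d3 and Prl2c5 values was not tested.

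The placental cathepsins are another family of the placenta that is clustered on chromosome 13. Of 9 genes, 8 were below the floor in both samples, with 5 differences above 0, 3 below 0 and a median of 0.19. The exception was Ctsll3, with 4.10 in the fusion line and 5.95 in the GFP line, a difference of -1.86. Ctsq and Ctsj, cathepsins of giant cells, read 2.71 and 2.30 in the fusion line, against 2.35 and 2.30 in the GFP line. They are also on the giant cell list, so they are counted in both.

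**Figure D4:**
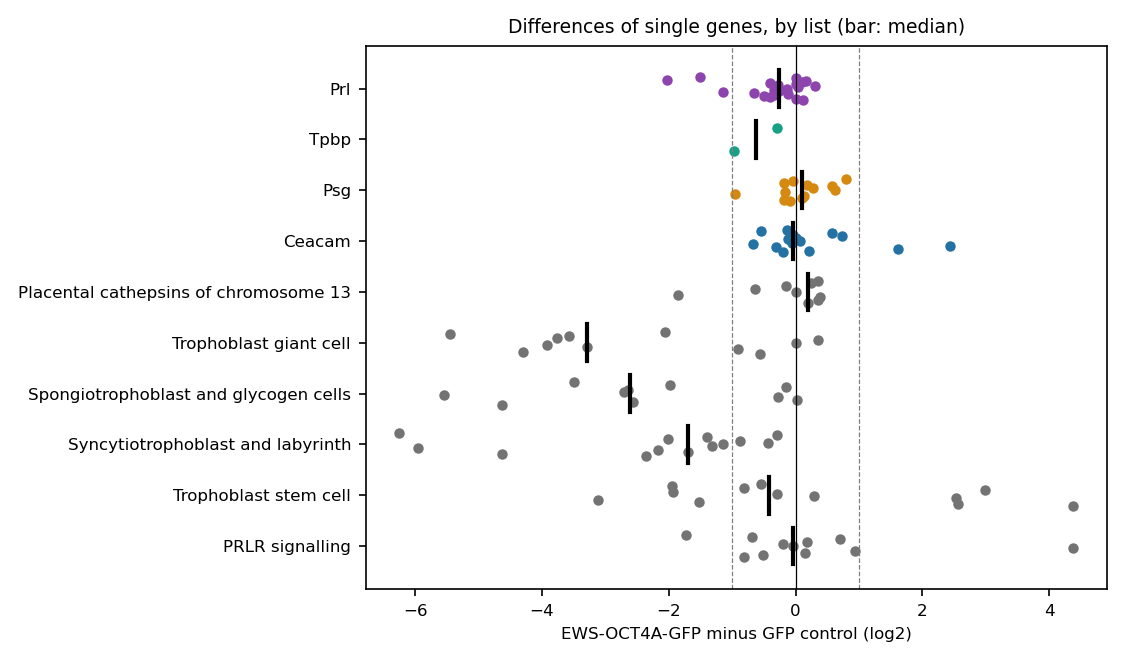
Difference (EWS-OCT4A-GFP minus GFP control, log2, horizontal axis) of each measured gene of a family or list, with 1 point per gene and a black bar at the median. The Prl, Tpbp, Psg and Ceacam genes and the placental cathepsins lie mostly within the dashed 2-fold lines, and the giant cell, spongiotrophoblast and syncytiotrophoblast lists have medians of -3.30, -2.60 and -1.70.

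Prolactin and the lactogens signal through Prlr, JAK2 and STAT5, with SOCS proteins as feedback inhibitors. Prlr was not analysed here. Of 11 measured genes listed for this pathway, 1 was higher and 1 was lower by at least 2-fold, with a median of -0.05. The list also holds growth hormone (Gh) and its receptor (Ghr). Both genes past 2-fold were among the 8 at or above the floor. These counts are near the 9.31% and 11.9% of all named genes at or above the floor, so they are no result about the pathway. The feedback inhibitor gene Socs2 read 8.17 in the fusion line and 3.79 in the GFP line, and the kinase gene Jak2 read 5.26 in the fusion line and 6.99 in the GFP line. Socs3 (0.94) and Elf5 (-0.81) followed. Stat5a differed by -0.68 and Stat5b by 0.70. Many cytokines, LIF included, use JAK proteins and SOCS feedback, so these genes do not report prolactin signalling alone.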

How the data were processed

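Per the labels' protocols, total RNA (300 ng per sample) was copied with random primers, amplified and labelled with biotin. The authors deposited log2 values, 1 column per line, made with RMA in Affymetrix Expression Console 1.1 per the submitters' processing notes. The log base is not stated and was taken from the range of 0.618 to 13.0. The design text speaks of duplicates, but each line has 1 column, and no source used here says whether that is 1 array or a mean. RMA quantile-normalizes the arrays, which hides a shift shared by most genes. The number of arrays limits the precision.

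The platform annotation gave gene names, and of a gene's probe sets the one with the highest mean was kept. All 51 symbols matched RefSeq (GRCm38.p6) by gene ID. The difference is EWS-OCT4A-GFP minus GFP control, described by a size of 2-fold and a floor at the median of all values, with no test. Named are all genes at or above the floor or at least 2-fold different, and others by family. From each context list up to 4 genes are named by size, and further genes were chosen after their values were seen. The members and lists were chosen with earlier results of these data known. Alternatives covered size, floor, centring and probe set choice. The procedure was tested on simulated data, with changes planted only in genes with a mean above 6. It thus says nothing about readings near or below the floor, where most of the 51 genes lie. Python 3.11.15, numpy 2.4.6, pandas 2.3.3, statsmodels 0.14.6, matplotlib 3.10.9 and Biopython 1.88 were used.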

Additional observations from a re-analysis of the deposited data

How the results depend on the processing

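No paired analysis was possible because each line has 1 sample, and for the same reason no replicate could be left out. The count of 2 genes at least 2-fold higher was the same under all 11 alternatives, of which the 2 on probe set choice could change nothing because 0 of the 51 genes have more than 1 probe set. Both Ceacam1 and Ceacam20 were past the size in each of the other 9. The count of 1 gene at least 2-fold lower became 3 with no floor, adding Prl2c5 and Prl7a1, and 0 with the floor at the 75th percentile, at a log2 value of 6, or on the mean of the pair, since Prl3d3 then lies below it. With no floor all 51 genes count, and with the floor at the 75th percentile or at 6 only 2 do. Medians over those 2 genes were 2.02 for all members and for Ceacam genes, and no Prl or Psg gene was left. With the floor on the mean of the pair, medians were 0.0905 for all members, -0.50 for Prl (1 gene), -0.034 for Psg (1 gene) and 0.91 for Ceacam, by construction over fewer genes. Centring moved the medians over all members by less than 0.10. With probe sets of several symbols included, Prl2c5 took the shared probe set and its difference was -1.10. Under loess centring Ceacam1 differed by 1.51. Signal over background is unknown, which limits all readings below the floor.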
